A study of Homo sapiens with 14 samples.

Results

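The mRNAs described here encode the protein subunits of the mitochondrial ribosome. They were taken by symbol, MRPL or MRPS followed by a number and at most 1 letter, with pseudogenes and antisense transcripts left out, which gave 78 genes of the 58434 symbols in the count file. Of these, 51 encode large subunit proteins, 26 encode small subunit proteins and MRPS36 was placed in neither, since its protein was later assigned to the 2-oxoglutarate dehydrogenase complex. All 78 had a gene of the same name in GENCODE v29 (GRCh38) and all 78 passed the filter on low counts in each of the 12 comparisons made. A further 76 symbols of MRPL or MRPS pseudogenes or antisense transcripts were not counted as members.

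The libraries come from MDA-MB-231, an established human breast cancer line that lacks the oestrogen receptor, carrying a doxycycline-inducible lentiviral shRNA that was either non-silencing (shNSi) or directed at DAP5 (shDAP5). DAP5, encoded by EIF4G2, is a relative of the initiation factor eIF4G that does not bind the cap-binding protein eIF4E. Both lines received doxycycline at 1 µg/ml for 6 days, so the control also carries an induced hairpin, and each line was sampled as 2 numbered cultures. From each of the 4 cultures came a total mRNA library and libraries of light and heavy polysomes, mRNA that sedimented in a sucrose gradient with few or with many ribosomes. A moderate polysome pool was present only for shNSi, which makes 14 libraries. The shDAP5 light libraries are titled light but carry the code of the moderate pool, and the shDAP5 total libraries are titled as total polysome mRNA, so every light and total value for shDAP5 rests on taking them as light and total mRNA. The study describes 2 complete sets of work that were done independently, whereas the labels give only a number for each culture. The p-values measure the spread between the 2 cultures of a line.

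Mitochondria keep their own ribosomes, which translate the few mRNAs of the mitochondrial genome into core subunits of the respiratory chain. All protein subunits of these ribosomes are encoded in the nucleus, translated on cytosolic ribosomes and imported. Some descend from bacterial ribosomal proteins and others are found only in mitochondria, and most are small basic proteins with short coding sequences. The length of a coding sequence bears on polysome data because it limits how many ribosomes an mRNA can carry at a given spacing.

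The members also share promoter letters that the choice of genes did not use. RefSeq promoters of GRCh38.p14, from 250 bases before to 50 bases after the start, were found for 69 members. The letters CCGGAAG, the core bound by ETS family factors such as NRF-2/GABP, were present on either strand in 29 of these promoters (42.0%) and in 10.7% of 27305 RefSeq promoters. The letters AAGATGGC, bound by YY1, were present in 20 of the 69 and in 3.03% of all promoters, whereas the full NRF-1 palindrome was found in 1 member promoter (1.45%, all promoters 1.36%). A cytidine followed by 4 pyrimidines at the annotated start, as in the mRNAs of cytosolic ribosomal proteins, was present in 5 (7.25%, all promoters 4.04%). Most of the YY1 letters in member promoters lay after the annotated start, for example at base 22 in MRPL51, 14 in MRPS30 and 9 in MRPL42. The following sites lie upstream of the start of members whose values are given below, with the motif in capitals on the strand of the gene, and they are shown as examples of these shared letters.
MRPL36, chr5:1799856-1799881, minus strand, YY1 letters in reverse: ccccccgccGCCATCTTccttcctgg
MRPL52, chr14:22829780-22829805, plus strand, YY1 letters: cgatgacccAAGATGGCggagccgtg
MRPL51, chr12:6493350-6493375, minus strand, ETS letters: gcaggcggaCCGGAAGcactgaggcg
MRPL54, chr19:3762652-3762677, plus strand, ETS letters in reverse: cactgacgtCTTCCGGaaacgtgcac
MRPS31, chr13:40771206-40771231, minus strand, ETS letters: ggcgccaggCCGGAAGcggaagagag
These are matches of letters only. MRPL36, MRPL52 and MRPL54 are among the highest members in the heavy polysome comparison and MRPS31 is among the lowest, so a site of this kind was present at both ends.

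Total counts per library lay between 25899838 and 30795910, and no member had fewer than 43 counts in any library. EIF4G2 was lower in the shDAP5 total mRNA libraries (578 and 796 CPM, read counts scaled to one fixed total per library) than in the shNSi ones (1494 and 1381), a log2 change of -1.11 ± 0.18 (SE, adjusted p = 0.0172 by edgeR's test) that did not pass without shDAP5 culture 1 (-0.90). The markers VIM and CD44 were at 924 CPM or more and 121 CPM or more in every library, ESR1 did not exceed 0.618 CPM and the leukocyte gene PTPRC did not exceed 0.25 CPM. Not all markers of other cell types were absent. The luminal gene GATA3 was at 9.55 to 15.2 CPM and the fibroblast gene COL1A1 at 8.24 to 59.4 CPM. In heavy polysomes the 3 markers of the line (VIM, CD44 and EGFR) were lower in shDAP5 (median -1.84), and so were 2 of the 3 markers of other cell types that passed the filter (of 6). Their part in the results below was not tested. CPM values are relative within a library, and in these bulk samples fewer cells of a type, less RNA per cell and a lower share of an mRNA in a fraction cannot be told apart. How overlapping genes were counted is not given in the sources used here. In GENCODE v29, 16 members share exon bases with another gene on the same strand and 29 with a gene on the opposite strand. The share was over 20% of exon bases for 7 members in each case, among them MRPL12 (68.2%, with AC139530.2) and MRPL33 (21.1%, with BABAM2) on the same strand and MRPS18C (40.2%, with ABRAXAS1), MRPL51 (31.3%, with NCAPD2), MRPS25 and MRPL4 on the opposite one, whose values are uncertain for that reason. So are those of MRPS31, whose pseudogenes held 7.97% of the counts of gene and pseudogenes together.

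In control cells the members were spread over the whole gradient, with short coding sequences mainly in light and long ones mainly in heavy polysomes. In total mRNA the 78 members together took 0.660% and 0.695% of all counts in the 2 shNSi cultures. Their share was 0.944% and 0.993% in light polysomes and 0.981% and 0.856% in the moderate pool. It was lowest in heavy polysomes, at 0.422% and 0.384%. The light and moderate shares thus lay above both total mRNA shares and the heavy shares below them, with no overlap.

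Per length, the most abundant member in shNSi total mRNA was MRPL51, a mitochondria-specific large subunit protein, at 211 CPM per kb of transcript. MRPL33 at 171 and MRPL34 at 151 CPM per kb followed, both counterparts of very small bacterial proteins. The median member was at 62.0 CPM per kb, and the lowest, MRPL53, at 2.54. MRPL53 shares 45.2% of its exon bases with CCDC142 on the same strand. MRPL38, MRPS17, MRPS24 and MRPS28, also among the lowest, share 37.5%, 27.0%, 23.2% and 35.8% on the same strand. These low levels are therefore uncertain.

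Relative to total mRNA of the same culture, on a log2 scale after TMM scaling of all 14 libraries, the median member was at 0.38 and 0.54 in shNSi light polysomes. It was at 0.62 and 0.61 in the moderate pool and at -0.38 and -0.48 in heavy polysomes. In shNSi culture 1, 30 members had their highest ratio in light polysomes, 37 in the moderate pool and 11 in heavy polysomes. In culture 2 these counts were 37, 37 and 4, so in both cultures most members peaked below the heavy fraction.

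**Figure D1:**
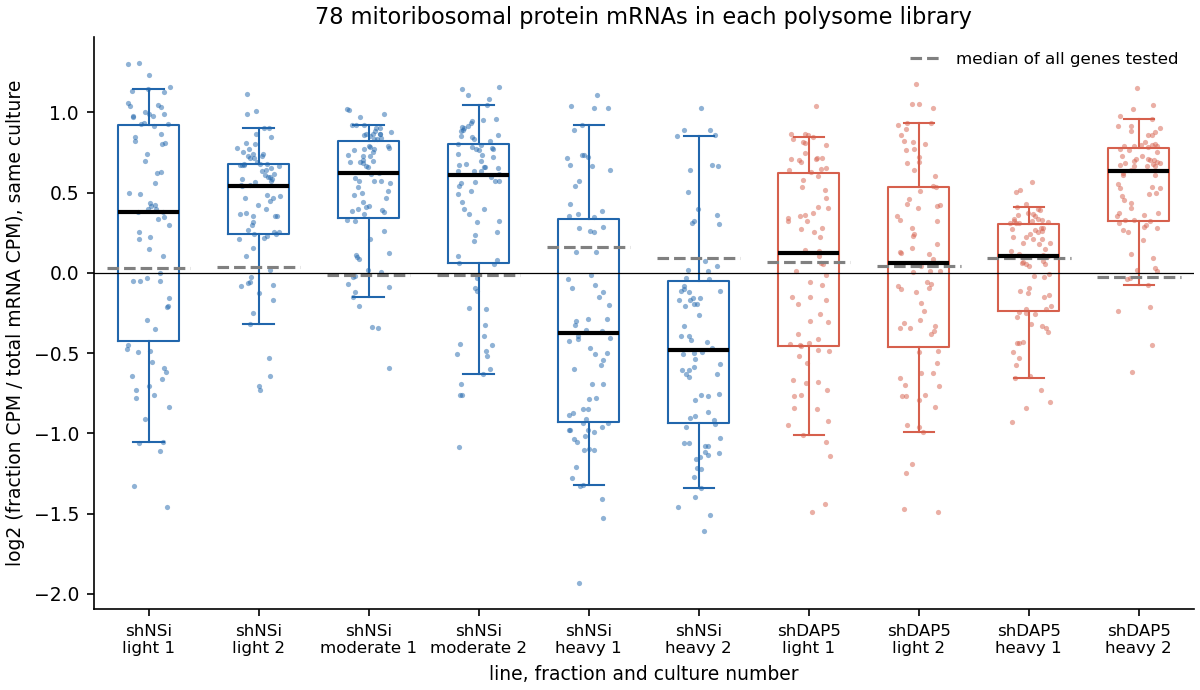
Each point is 1 of the 78 members in 1 polysome library, as log2 of its CPM over its CPM in total mRNA of the same culture (vertical axis), with the libraries named on the horizontal axis. Boxes span the quartiles with the median as a thick line, whiskers span the 5th to 95th percentiles and the dashed line is the median of all genes tested. The shNSi heavy medians lie below 0 (-0.38 and -0.48) and the shDAP5 heavy medians above it (0.11 and 0.63).

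Against total mRNA, 31 members were lower and 10 were higher in shNSi heavy polysomes, out of 16235 genes of which 14.3% were lower and 26.5% higher. The median member changed by -0.41 on the log2 scale, whereas the median of all genes was 0.11. MRPL33, the member with the shortest coding sequence (195 nt), was at -1.93 and -1.61 relative to total mRNA in the 2 cultures, the lowest value in each (-1.76 ± 0.27, adjusted p = 0.000861). MRPL34, coding sequence 276 nt, was at -1.53 and -1.46 (-1.49 ± 0.26, adjusted p = 0.000998). At the other end was MRPS27, a pentatricopeptide repeat protein of the small subunit with a coding sequence of 1242 nt. It was at 1.11 and 1.03 (1.07 ± 0.25, adjusted p = 0.0024). MRPS9, the small subunit counterpart of bacterial S9, was at 1.04 and 0.89 (0.98 ± 0.27, adjusted p = 0.00678). The 10 that were higher also included MRPS31, MRPS30, MRPS5, MRPL39, MRPL44, MRPL1, MRPL15 and MRPL19. Without shNSi culture 1 or 2, 1 member was higher in either case (14.4% or 4.98% of all genes) and 25 or 16 were lower (9.58% or 7.32%). With no term for each culture 2 were higher and 24 lower (15.7% and 7.64% of all genes). With library size in place of TMM, 50 members were lower and 0 higher in this comparison (29.9% and 7.16% of all genes), and the median of all genes moved to -0.40. The distance between the member median and that of all genes was -0.53 under both scalings.

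Across the 78 members, the log2 ratio of shNSi heavy polysomes to total mRNA rose with coding length, with Spearman's rho of 0.84. For 12736 coding genes rho was 0.63. These are descriptions over genes measured in the same libraries. None of the 28 members with a coding sequence under 500 nt was higher in shNSi heavy polysomes and 23 were lower (median -1.04), where 0.279% and 69.3% of all coding genes of that class were called. Of the 40 members between 500 and 1000 nt, 4 were higher and 8 were lower (median -0.13), where 4.12% and 18.8% of the class were called. Of the 10 members of 1000 nt or more, 6 were higher and 0 lower (median 0.76), where 45.6% and 2.84% of the class were called. All coding genes in the same length classes had medians of -1.03, -0.26 and 0.62. The member medians thus followed those of all coding genes of the same length.

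In the shNSi moderate pool 12 members were higher than in total mRNA and 0 were lower, where 1.46% and 5.93% of all genes were called, and the member median was 0.60 against -0.02 for all genes. Of the 12, 10 had a coding sequence between 500 and 1000 nt. MRPL22, which lines the exit tunnel of the large subunit, was at 0.90 and 1.08 relative to total mRNA (0.99 ± 0.23, adjusted p = 0.0164). MRPL30 was at 1.02 and 0.89 (0.95 ± 0.23, adjusted p = 0.0176). The shortest member, MRPL33, was at -0.59 and -0.51 and did not pass the test (adjusted p = 0.186), nor did MRPS6 with 0.21 and -1.08, whose cultures differed widely (adjusted p = 0.365). When any 1 of the 4 cultures was left out the member calls were lost, at member medians between 0.55 and 0.61. Few genes of any kind were then called higher. With DESeq2 32 members were higher (5.09% of all genes). Set against shNSi heavy polysomes directly, 55 members were higher in the moderate pool and 2 were lower, MRPS27 and MRPS31, where 13.1% and 24.1% of all genes were called. The count of lower members was 0 without shNSi culture 1 or with library size (13.3% and 17.1% of all genes), 4 without shNSi culture 2 (20.1%) and 1 with DESeq2 (22.7%), so these names depend on the setting. The largest difference was that of MRPS18C, at 1.61 ± 0.24 (adjusted p = 2.43e-05), followed by MRPL54 at 1.56 ± 0.25 (adjusted p = 5.97e-05).

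In shNSi light polysomes 26 members were higher than in total mRNA and 3 were lower, where 6.47% and 13.8% of all genes were called. MRPL57 was at 1.23 and 1.01 (1.12 ± 0.25, adjusted p = 0.00404) and MRPL41 at 1.13 and 1.12 (1.12 ± 0.28, adjusted p = 0.00844), both mitochondria-specific proteins of the large subunit. The 3 that were lower were MRPL39, MRPS9 and MRPS27. MRPL39 was at -1.33 and -0.73 (-1.03 ± 0.24, adjusted p = 0.0061). Of the 26 members that were higher, 21 had a coding sequence under 500 nt. With shNSi culture 1 left out no member passed in either direction (0.024% and 3.12% of all genes were higher and lower), and with shNSi culture 2 left out 9 were higher and 4 lower (4.5% and 11.6%). Without shDAP5 culture 1 or 2, which share the estimate of the spread, 15 or 14 were higher (2.62% or 2.6%).

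In total mRNA no change of a member was detectable between shDAP5 and shNSi. No member passed the test with edgeR or with DESeq2, where 0.0867% of 14992 genes were higher and 0.267% lower with edgeR. At an unadjusted p under 0.05, edgeR gave 1 member higher and 1 lower (4.99% and 7.01% of all genes) and DESeq2 gave 0 higher and 1 lower (552 and 1002 of all genes). The member median was 0.05 and that of all genes was 0.01. Among members with at least 10 CPM, the lowest change was that of MRPS25, a small subunit protein, with 62.1 and 76.8 CPM in shNSi and 48.5 and 52.2 CPM in shDAP5 (-0.46 ± 0.19, adjusted p = 0.329). MRPS31 had 25.6 and 31.9 CPM in shNSi and 23.7 and 19.4 CPM in shDAP5 (-0.41 ± 0.22, adjusted p = 0.489). The highest changes were those of MRPS6, with 59.1 and 56.2 CPM in shNSi and 88.0 and 64.5 CPM in shDAP5 (0.40 ± 0.20, adjusted p = 0.438), and MRPL42, with 61.5 and 67.8 CPM in shNSi and 85.7 and 83.0 CPM in shDAP5 (0.38 ± 0.18, adjusted p = 0.41). These 4 were the ends of the order, none passed the test, and in each of them the groups did not overlap. The 2 groups did not overlap for 14 members with shDAP5 above shNSi and 10 with shDAP5 below, where 21.9% and 20.4% of all genes did so.

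In heavy polysomes most members were higher in shDAP5 than in shNSi, a result that did not hold with the shNSi moderate pool as control (values below). Of the 78, 47 were higher and 1 was lower in shDAP5, where 14.2% and 16.7% of 14270 genes were called, and the member median was 0.98 against 0.09 for all genes. The heavy libraries held 0.734% and 0.859% of counts in members in shDAP5. Both shDAP5 cultures were above both shNSi cultures for 64 members and below for 6, where 36.4% and 30.9% of all genes separated in this way. The largest rise was that of MRPL52, a mitochondria-specific large subunit protein, with 33.8 and 32.6 CPM in shNSi and 82.5 and 131 CPM in shDAP5 (1.68 ± 0.33, adjusted p = 3.31e-05). MRPL36, counterpart of one of the smallest bacterial ribosomal proteins, had 15.0 and 17.9 CPM in shNSi and 42.0 and 61.4 CPM in shDAP5 (1.65 ± 0.34, adjusted p = 5.65e-05). The 2 groups were well apart for both genes, with the higher value in shDAP5 culture 2.

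The 1 member that fell was MRPS31, with 39.6 and 44.0 CPM in shNSi and 21.6 and 23.5 CPM in shDAP5 (-0.89 ± 0.33, adjusted p = 0.0293). No member was lower without shNSi culture 2, without either shDAP5 culture or with library size in place of TMM. MRPS30, a large subunit protein despite its name and the member with the longest coding sequence (1317 nt), had 80.6 and 79.9 CPM in shNSi and 50.05 and 53.5 CPM in shDAP5, with no overlap but short of the threshold (-0.63 ± 0.33, adjusted p = 0.126). The 6 members with both shDAP5 cultures below both shNSi cultures were MRPL39, MRPS5, MRPS9, MRPS27, MRPS30 and MRPS31, all of 1000 nt or more. By subunit, 32 of 51 large subunit members and 14 of 26 small subunit members were higher, with medians of 0.93 and 0.98. The calls were lost without shDAP5 culture 2, for all genes as for the members, with 1 gene higher and 1 lower of 14891 and 0 members, at a member median of 0.69, whereas without shDAP5 culture 1 it was 1.09 with 35 higher (7.64% of all genes), and without shNSi culture 1 or 2, 24 or 27 were higher (7.07% and 5.66% of all genes).

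Translation efficiency was taken as heavy polysome mRNA relative to total mRNA of the same culture, on a log2 scale after TMM scaling of these 8 libraries, and its change as the interaction of fraction and shRNA. The difference between the 2 shDAP5 cultures in heavy polysomes did not go with their difference in total mRNA (r = -0.02 over 16235 genes). For shNSi heavy polysomes r was 0.61, and for the light and moderate pools it was 0.54 to 0.64. The shDAP5 heavy ratios thus rest on the label of the culture. Heavy translation efficiency was higher in shDAP5 for 33 members and lower for 0, where 4.85% and 8.23% of 15374 genes were called. These calls fell to 0 without shNSi culture 1, shNSi culture 2 or shDAP5 culture 2, with library size, with no term for each culture and with the moderate or summed control. The member median was 0.87 and that of all genes was 0.09. In 63 members both shDAP5 cultures were above both shNSi cultures and in 5 both were below, where 32.5% and 28.1% of all genes separated, and in the other 10 the groups overlapped.

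Among large subunit proteins 24 of 51 rose (median 0.92). MRPL34 (chr19:17292609-17306843, plus strand) had the largest change. Its heavy mRNA relative to total mRNA was -1.74 and -1.61 in shNSi and -0.71 and 0.32 in shDAP5 (1.48 ± 0.35, adjusted p = 0.00846). MRPL23 (chr11:1947278-1984522, plus strand), counterpart of a bacterial protein at the exit of the peptide tunnel, was at -1.19 and -0.79 in shNSi and -0.03 and 0.97 in shDAP5 (1.46 ± 0.35, adjusted p = 0.00903). MRPL36 (chr5:1798386-1801366, minus strand) was at -1.49 and -1.11 in shNSi and -0.30 and 0.60 in shDAP5 (1.45 ± 0.35, adjusted p = 0.00868). In each of these, shDAP5 culture 2 was the highest of the 4 cultures and both shNSi cultures were the lowest. MRPL52 (chr14:22829879-22835037, plus strand) was at -1.25 and -1.37 in shNSi and -0.34 and 0.61 in shDAP5 (1.45 ± 0.35, adjusted p = 0.00849).

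MRPL12, the stalk protein that recruits translation factors to the ribosome, was at -1.15 and -1.19 in shNSi and -0.51 and 0.55 in shDAP5 (1.19 ± 0.35, adjusted p = 0.0239). MRPL11, which forms the base of that stalk, was at -1.32 and -1.43 in shNSi and -0.72 and -0.25 in shDAP5, and missed the threshold (0.89 ± 0.33, adjusted p = 0.0658). MRPL58, a peptidyl-tRNA hydrolase that rescues stalled ribosomes, was at -0.25 and -0.36 in shNSi and 0.33 and 0.90 in shDAP5 (0.92 ± 0.34, adjusted p = 0.0591). The stalk and rescue proteins thus separated by group, and of these only MRPL12 passed. MRPL45, which ties the large subunit to the inner membrane, was at 0.05 and -0.41 in shNSi and 0.24 and 0.47 in shDAP5 (0.54 ± 0.33, adjusted p = 0.278). MRPL3, near the peptidyl transferase centre, had overlapping groups, with 0.45 and 0.16 in shNSi and 0.45 and 0.66 in shDAP5 (0.25 ± 0.34, adjusted p = 0.66). MRPL44, which has a ribonuclease III fold, was at 0.51 and 0.49 in shNSi and 0.27 and 0.70 in shDAP5 (-0.01 ± 0.34, adjusted p = 0.984).

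Among small subunit proteins 8 of 26 rose (median 0.79). MRPS12, counterpart of the bacterial protein at the decoding centre, was at -1.17 and -1.49 in shNSi and -0.39 and 0.29 in shDAP5 (1.28 ± 0.34, adjusted p = 0.0135). MRPS16, in which mutations cause a respiratory chain defect, was at -0.81 and -1.02 in shNSi and -0.02 and 0.09 in shDAP5, and missed the threshold narrowly (0.95 ± 0.34, adjusted p = 0.0502). MRPS7, a protein of the head of the small subunit, was at -0.62 and -0.91 in shNSi and -0.07 and 0.32 in shDAP5 (0.89 ± 0.34, adjusted p = 0.0669). These 3 separated by group without overlap. MRPS2 was at -0.08 and -0.18 in shNSi and 0.11 and 0.78 in shDAP5 (0.58 ± 0.34, adjusted p = 0.249). MRPS22, another disease gene, had overlapping groups, at 0.52 and 0.21 in shNSi and 0.24 and 0.68 in shDAP5 (0.10 ± 0.34, adjusted p = 0.873). MRPS36, placed in neither subunit, was at -1.19 and -1.28 in shNSi and -0.31 and 0.43 in shDAP5 (1.29 ± 0.34, adjusted p = 0.014). By origin, 20 of 48 members with a bacterial counterpart rose (median 0.88) and 12 of 29 mitochondria-specific members (median 0.76). The share that rose was 41.7% and 41.4%.

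**Figure D2:**
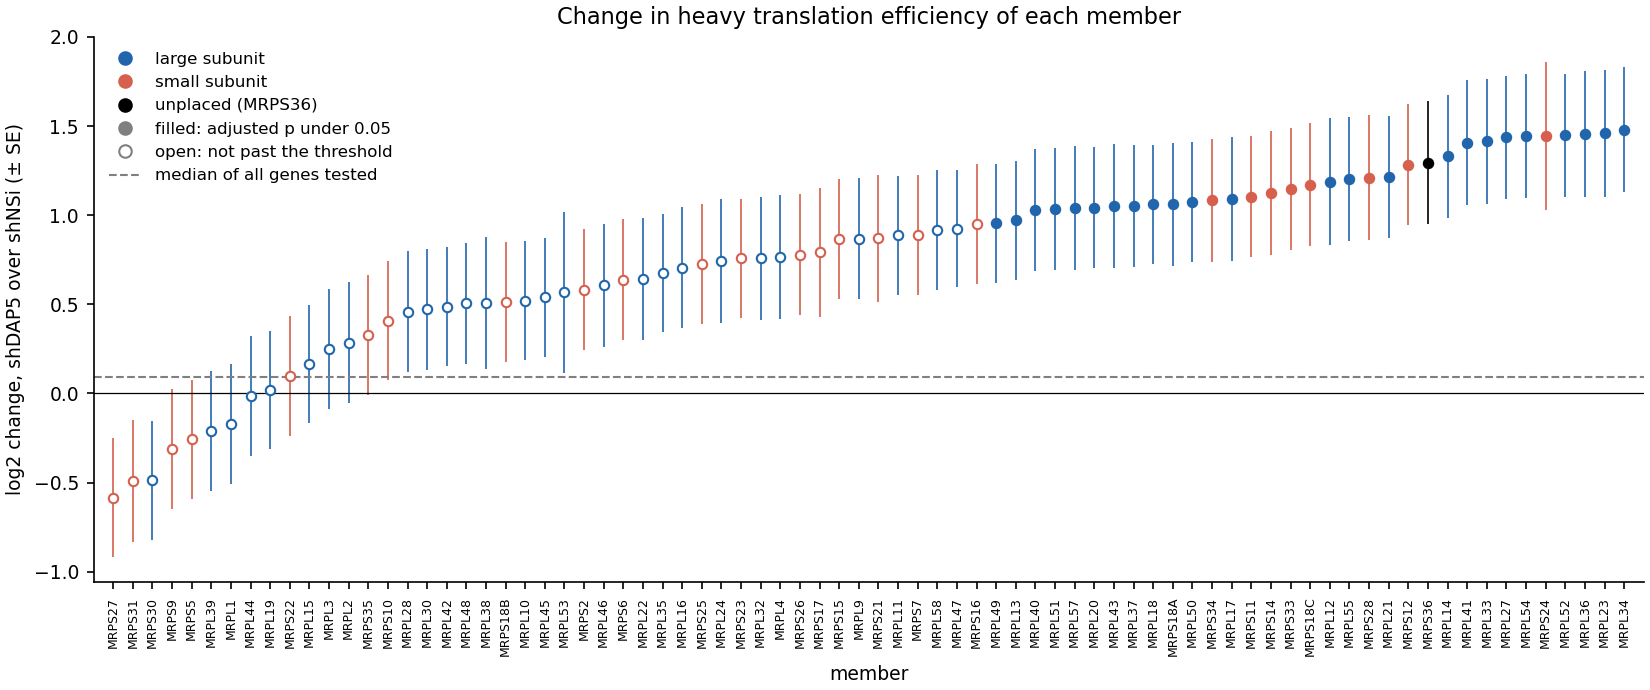
The log2 change in heavy translation efficiency, shDAP5 over shNSi (vertical axis, ± SE), for each of the 78 members in order (horizontal axis), with filled points for the 33 past the threshold and colours for the subunit. The order runs from -0.59 (MRPS27) to 1.48 (MRPL34), and members of both subunits are found along it.

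No member fell past the threshold in heavy translation efficiency. The lowest was MRPS27 (chr5:72219409-72320646, minus strand), at 0.90 and 0.87 in shNSi and 0.34 and 0.26 in shDAP5 (-0.59 ± 0.33, adjusted p = 0.235). MRPS31 was at 0.81 and 0.74 in shNSi and 0.08 and 0.49 in shDAP5 (-0.49 ± 0.34, adjusted p = 0.344). MRPS30 was at 0.71 and 0.70 in shNSi and 0.19 and 0.24 in shDAP5 (-0.49 ± 0.33, adjusted p = 0.33). In these genes the groups did not overlap, with the 2 shNSi cultures close together and above both shDAP5 cultures. MRPS9 was at 0.83 and 0.73 in shNSi and 0.24 and 0.70 in shDAP5 (-0.31 ± 0.34, adjusted p = 0.568).

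**Figure D3:**
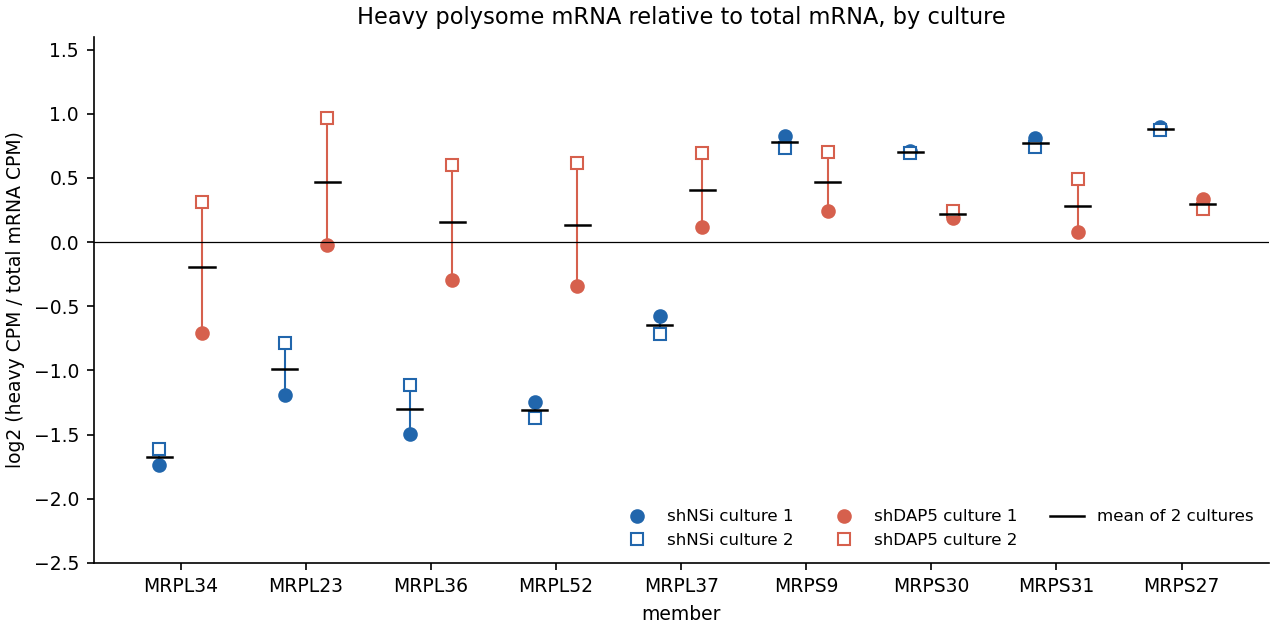
Log2 of heavy polysome CPM over total mRNA CPM (vertical axis) in each culture for the 4 highest members, MRPL37 and the 4 lowest members (horizontal axis), with circles for culture 1, open squares for culture 2 and black bars for the mean of 2. For the 4 highest members and MRPL37 the shDAP5 cultures are above the shNSi cultures and differ more from each other, for example -0.71 and 0.32 for MRPL34.

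The change in heavy translation efficiency followed coding length as well. Over the 78 members Spearman's rho with coding length was -0.72, and over 12476 genes it was -0.71, in the opposite direction to the ratio in shNSi cells. Of the 28 members under 500 nt, 21 rose (median 1.14), where 35.4% of 1032 coding genes of that class rose (median 0.88). Of the 40 members between 500 and 1000 nt, 11 rose (27.5%, median 0.76), where 8.95% of 2794 genes rose (median 0.54). Of the 10 members of 1000 nt or more, 1 rose (median -0.23), where 0.416% of 8650 genes rose (median -0.31). With the smooth trend of each library on coding length removed, 1 of 78 members rose in heavy translation efficiency and 0 fell, where 221 (1.77%) and 309 (2.48%) of 12476 genes rose and fell, so the members were at about the share of all genes. The member median was then 0.20, with 54 of 78 changes above 0. In heavy polysomes 1 member was then higher and 1 lower (median 0.21), where 4.93% and 7.23% of 12132 genes were called.

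The 1 member called with coding length taken out was MRPL37, a mitochondria-specific large subunit protein with a coding sequence of 1269 nt (chr1:54184041-54225464, plus strand), which was looked at for this reason after its values were seen. A single call among 78 members is no more than the 1.77% of all genes called, and nothing particular to MRPL37 is read from it. It was at -0.57 and -0.72 in shNSi and 0.12 and 0.70 in shDAP5 (1.05 ± 0.34, adjusted p = 0.0353), and with coding length taken out the change was 1.02 ± 0.25 (adjusted p = 0.0207). In heavy polysomes it had 121 and 120 CPM in shNSi and 186 and 274 CPM in shDAP5. Its shNSi heavy ratio was below 0 in both cultures, while each of the other 9 members of 1000 nt or more was above 0 in at least 1 culture. In heavy polysomes with coding length taken out, MRPL37 was again the member that was higher (0.90 ± 0.27, adjusted p = 0.0412) and MRPS31 the member that was lower (adjusted p = 0.0267).

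**Figure D4:**
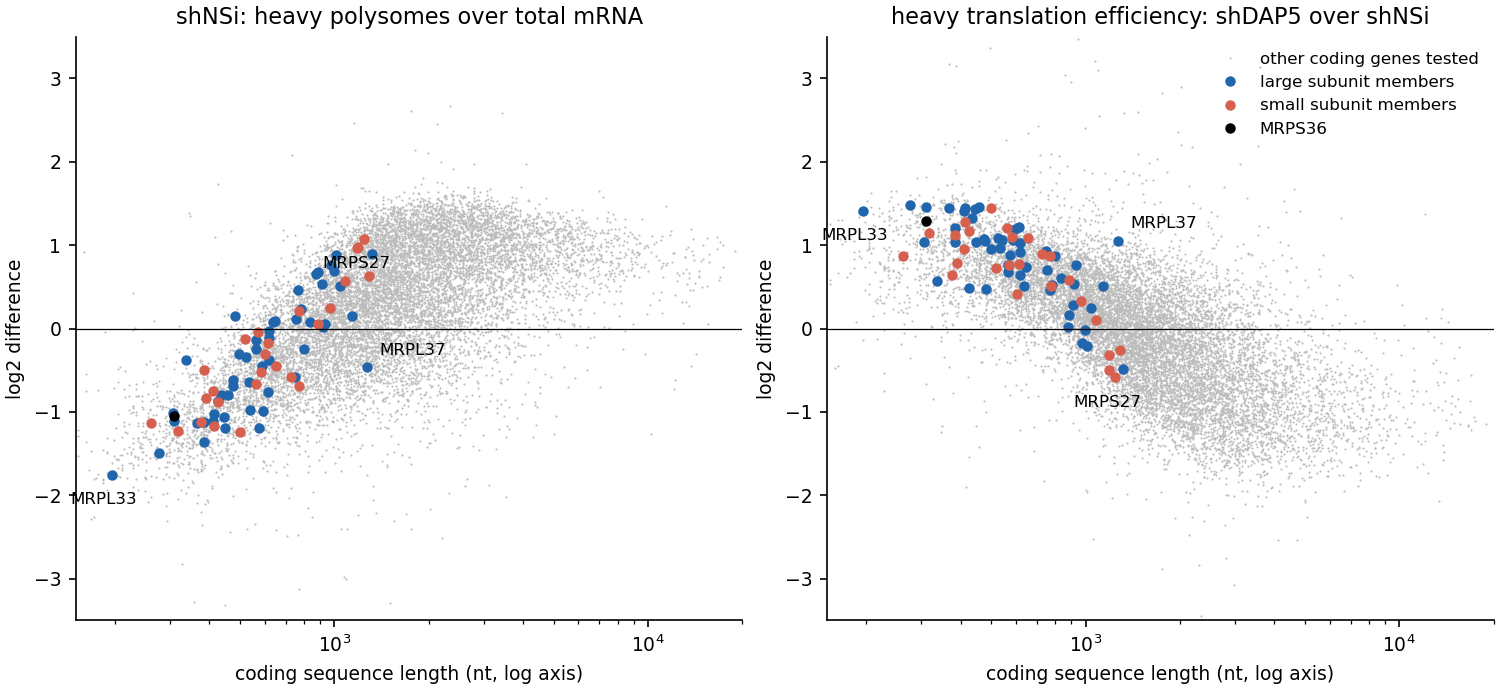
Coding sequence length in nt (horizontal log axis) against the log2 ratio of shNSi heavy polysomes to total mRNA (left) and the log2 change in heavy translation efficiency, shDAP5 over shNSi (right), with members coloured by subunit and other coding genes in grey (24 of 12476 genes lie outside the axes). Members follow the cloud of other genes in both panels (rho over members 0.84 and -0.72), and MRPL33, MRPS27 and MRPL37 are labelled.

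The heavy comparison depended on the culture and on the control pool. The shDAP5 heavy cultures were far apart, with member medians of 0.11 and 0.63 relative to total mRNA, against -0.38 and -0.48 in shNSi. Without shDAP5 culture 2, 0 members rose in heavy translation efficiency and the median was 0.58, with 4 of 15914 genes higher and 39 lower. Without shDAP5 culture 1, 52 rose and the median was 1.13, where 13.0% of all genes rose. With shNSi culture 1 or 2 left out 0 members passed, at medians of 0.93 and 0.82, with 20 of 15917 and 1 of 15976 genes higher and 552 (3.47%) and 3 lower. Since the shDAP5 gradients have no moderate pool, the shNSi moderate libraries were also set in place of shNSi heavy. The member median was then -0.23, and against the sum of both shNSi pools it was 0.24, with 0 of all genes called in either case. In heavy polysomes alone the same controls gave medians of -0.22 and 0.20 and 0 members called, where 26 and 84 genes were higher and 24 and 337 lower. A difference in how the gradients were pooled and a difference between the lines cannot be told apart here.

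**Figure D5:**
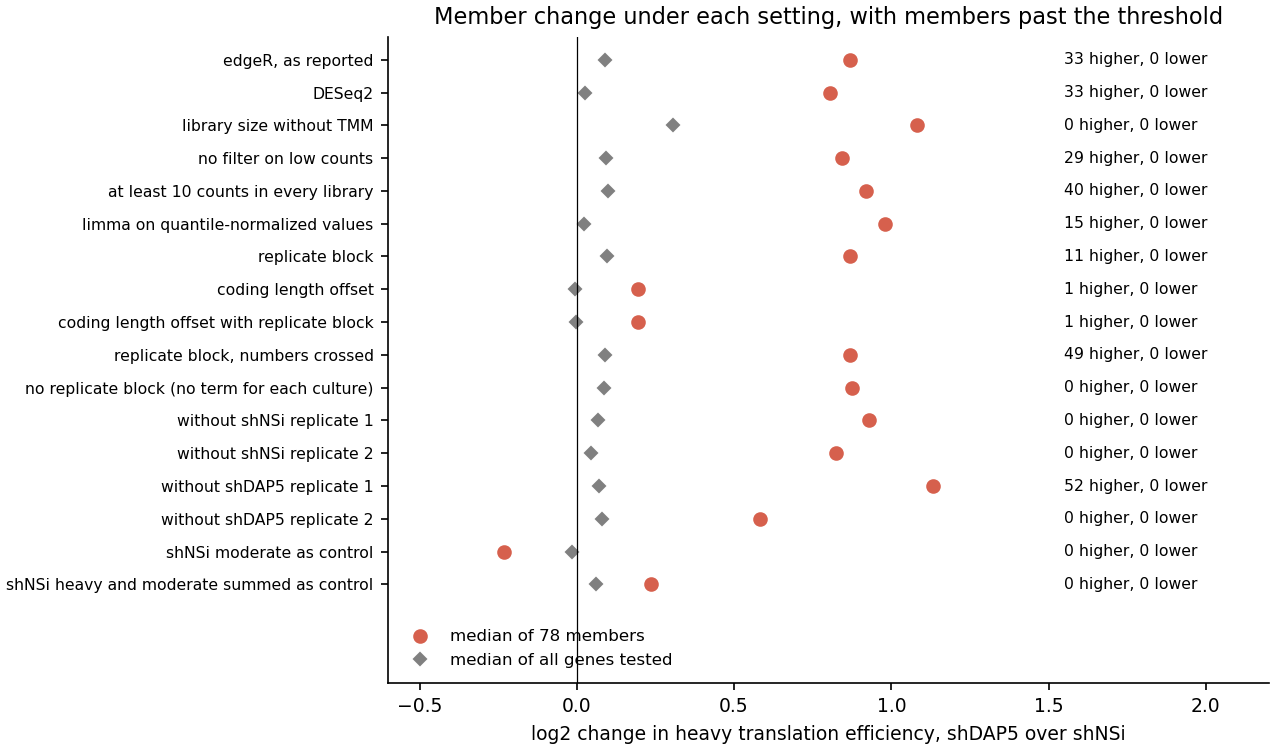
The median log2 change in heavy translation efficiency of the 78 members (circles) and of all genes tested (diamonds) on the horizontal axis, for the analysis as reported and each alternative on the vertical axis, with the members past the threshold written at the right. The member median is above 0 in all settings but 1, the shNSi moderate pool as control, where it is -0.23.

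Within shDAP5 cells no difference between heavy polysomes and total mRNA was detectable for any member. Here 0 members passed with edgeR and 0 with DESeq2, and at an unadjusted p under 0.05, 18 were higher and 1 lower with edgeR (3.71% and 7.74% of all genes) and 17 higher and 3 lower with DESeq2 (564 and 1173 of all genes), where at the adjusted threshold 0.0% and 0.326% of all genes were higher and lower with edgeR. The member median was 0.39. MRPL28 was highest, at 0.37 and 1.15 in the 2 cultures (0.77 ± 0.26, adjusted p = 0.242). MRPL15 was at 0.50 and 0.88 (0.71 ± 0.26, adjusted p = 0.314). MRPS6 at -0.80 and -0.45 and MRPL42 at -0.43 and -0.62 were lowest. Coding length was still related to this ratio among members (rho 0.59), while over all coding genes rho was -0.12. In shDAP5 culture 1, 38 members were highest in light and 40 in heavy polysomes, and in culture 2 these counts were 23 and 55.

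In light polysomes no member passed the test between shDAP5 and shNSi, with 0 of 15529 genes called (0.0%). At an unadjusted p under 0.05, 0 members were higher and 7 lower with edgeR and 0 higher and 13 lower with DESeq2 (459 and 905 of all genes), where 3.39% and 5.17% of all genes were higher and lower with edgeR. The member median was -0.36, that of all genes was -0.01, and the groups did not overlap for 37 members with shDAP5 below shNSi and 3 with shDAP5 above (MRPL42, MRPL51 and MRPS10), where 20.2% and 21.3% of all genes did so. MRPL15 had 40.6 and 69.1 CPM in shNSi and 32.2 and 23.0 CPM in shDAP5 (-0.99 ± 0.33, adjusted p = 0.51). MRPL4, whose bacterial counterpart lines the exit tunnel, had 118 and 215 CPM in shNSi and 93.0 and 76.7 CPM in shDAP5 (-0.97 ± 0.34, adjusted p = 0.535). For both genes shNSi culture 2 stood well above the other 3 cultures. MRPL42 had 122 and 87.3 CPM in shNSi and 149 and 165 CPM in shDAP5 (0.59 ± 0.29, adjusted p = 0.603). MRPS6 had 153 and 92.3 CPM in shNSi and 187 and 151 CPM in shDAP5, with overlap (0.46 ± 0.33, adjusted p = 0.692). With shNSi culture 1 or 2 left out the member median was -0.56 or -0.14, and with shDAP5 culture 1 or 2 left out -0.41 or -0.26. Whether members were called depended on the culture left out. With the shNSi moderate pool as control, whose code the shDAP5 light libraries carry, 7 were higher and 23 lower (median -0.62), where 12.6% and 13.0% of all genes were called.

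Light translation efficiency showed the same absence of calls, with 0 of 15967 genes called (0.0%). At an unadjusted p under 0.05, 0 members were higher and 17 lower with edgeR and 0 higher and 14 lower with DESeq2 (138 and 312 of all genes), where 2.21% and 3.01% of all genes were higher and lower with edgeR. The groups did not overlap for 46 members with shDAP5 below shNSi and 1 with shDAP5 above (MRPS24), where 17.6% and 18.6% of all genes did so, and the member median was -0.35. MRPS24 shares 23.2% of its exon bases with URGCP-MRPS24 on the same strand, so its values are uncertain. MRPL4 was at -0.18 and 0.42 in shNSi and -0.70 and -0.99 in shDAP5 (-0.97 ± 0.27, adjusted p = 0.879). MRPS26 was at 0.19 and 0.50 in shNSi and -0.18 and -0.60 in shDAP5 (-0.74 ± 0.23, adjusted p = 0.879). Among members with at least 10 CPM in total mRNA, MRPL42 and MRPS6 were again at the high end, with changes of 0.24 ± 0.26 (adjusted p = 0.911) and 0.14 ± 0.26 (adjusted p = 0.952). With shNSi culture 1 left out 1 member was higher and 31 lower, where 4.82% and 7.51% of all genes were called. With any other culture left out 0 were called, at a median of -0.25 without shNSi culture 2. With the shNSi moderate pool as control 10 were higher and 30 lower, where 13.8% of all genes were called in each direction, so the members that were higher were at about the share of all genes. Within shDAP5 cells, 16 members were higher and 12 lower in light polysomes than in total mRNA, where 11.1% and 15.3% of all genes were called, and with either shDAP5 culture left out 0 passed. The ends were MRPS6 (1.04 and 1.17) with MRPL51 and MRPL39 (-1.44 and -1.49) with MRPS9.

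The change in heavy polysomes differed from the change in light polysomes for 35 members, and in all 35 the heavy change was the higher of the pair, where 4.70% of 16235 genes were called in that direction and 12.4% in the other. The median difference was 0.96. This difference fell with coding length, with Spearman's rho of -0.50 over members and -0.70 over 12736 coding genes. It was not fitted with coding length taken out or with another control pool, and it rests on taking the shDAP5 light libraries as light. For MRPL23 it was 1.87 ± 0.36 (adjusted p = 0.00371) and for MRPL41 1.86 ± 0.39 (adjusted p = 0.00495). Without shDAP5 culture 2 or without shNSi culture 2, 0 members and 0 of all genes passed, at member medians of 0.73 and 0.99, and without shNSi culture 1 or shDAP5 culture 1, 45 or 29 members were higher (7.68% or 3.54% of all genes).

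Other genes that serve mitochondrial translation were read in heavy translation efficiency against the 4.85% and 8.23% of all genes that were higher and lower. Of 5 mitoribosome subunits with other names 2 rose, GADD45GIP1 (1.03 ± 0.34, adjusted p = 0.039) and CHCHD1 (1.02 ± 0.34, adjusted p = 0.041), while PTCD3, a long pentatricopeptide repeat protein of the small subunit, had -0.90 ± 0.33 (adjusted p = 0.062). Of 17 translation and mRNA stability factors 1 rose and 2 fell (median 0.17), near the shares of all genes. SLIRP rose (1.49 ± 0.35, adjusted p = 0.008) and LRPPRC, its partner in mitochondrial mRNA stability, fell (-1.69 ± 0.36, adjusted p = 0.007). Over all genes this change fell with coding length (rho -0.71). The lists in this paragraph were not split by coding length, so nothing about the partners is read from the 2 directions. TUFM, the elongation factor that brings tRNA to the mitoribosome, was at 0.27 ± 0.35 (adjusted p = 0.645). Of 25 assembly factors 2 rose and 2 fell (median 0.06), 8.0% each way and near the share of all genes, with FASTKD2 lowest (-1.15 ± 0.34, adjusted p = 0.024) and MALSU1 highest (1.21 ± 0.35, adjusted p = 0.019). None of 17 mitochondrial aminoacyl-tRNA synthetases passed (median -0.38). The cytosolic ribosomal proteins, with 45 of 78 higher and 0 lower (median 1.12), and the nuclear-encoded respiratory chain subunits, with 37 higher and 1 lower of 61 (median 1.11), moved in the direction of the members and by a larger median. The mRNAs of the mitochondrial genome itself were not analysed here.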

How the data were processed

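RNA sequencing of 14 libraries from MDA-MB-231 cells was analysed. The authors deposited read counts per gene symbol as whole numbers, without normalization. The submitters' processing notes name STAR 2.6.0a, hg19 and limma. The name of the deposited table points to featureCounts, and the settings of counting are not given in the sources used here. The study quantile normalized total and polysome mRNA independently. Positions and coding lengths were taken by symbol from GENCODE v29 (GRCh38), and promoters from RefSeq (GRCh38.p14), so none is in the build of the counts.

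Counts were analysed in R 4.3.3 with edgeR 4.0.16 (filterByExpr, TMM and robust quasi-likelihood F tests) and Benjamini-Hochberg adjustment over all genes tested, with a threshold of 0.05. Each fraction was fitted on its 4 libraries, translation efficiency on 8 with a term for each culture, and the gradient on all 14. Errors are standard errors. CPM of members are TMM-scaled within each fit, those of EIF4G2 and the markers are scaled by library size alone, and ratios to total mRNA use the CPM of the same culture. On simulated counts with a log2 change of 1.5, the fit of heavy translation efficiency recovered 58% of 200 changed genes with 3.33% of calls false (15154 genes), and that of heavy polysomes 59.5% of 195 with 8.66% false (13706 genes). The simulated counts varied independently between genes and held no shared change along coding length. These rates therefore do not carry over to the calls made here.

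The members and gene lists were chosen with earlier results of these data known. Named members are those at the 2 ends of each comparison (4 at each end in heavy translation efficiency) with at least 10 CPM in total mRNA, the shortest and the longest coding sequence, and a fixed set by role. Alternatives were DESeq2 1.42.0, library size without TMM, other filters, limma 3.58.1 on quantile-normalized log2(CPM + 1), the replicate block, a coding length offset, other control pools and each culture left out. The crossed block and the difference between the heavy and light changes were added after the data were seen.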

Additional observations from a re-analysis of the deposited data

Results flagged for a closer look

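The change of the members between shDAP5 and shNSi differed between the 2 polysome fractions. In a contrast of the fit of all 14 libraries, the change in heavy polysomes was above the change in light polysomes for 35 of 78 members past the adjusted threshold (edgeR) and below it for 0, and 72 of 78 differences were above 0. The member medians were 0.98 in heavy and -0.36 in light polysomes, where no member was called. Over all 16235 genes 4.70% were called in that direction. MRPL23 and MRPL41 were at the high end (1.87 ± 0.36 and 1.86 ± 0.39 on the log2 scale). With the shNSi moderate pool as control the member median was -0.22 in heavy and -0.62 in light polysomes. The difference itself was not fitted with that control or with coding length taken out. Over the members it fell with coding length (rho -0.50). The call was lost without shDAP5 culture 2 and without shNSi culture 2, where 0 members and 0 of all genes passed.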

How the results depend on the processing

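In total mRNA 0 members were called under every alternative run, but the small median (0.05) turned below 0 with the coding length offset (-0.016), the offset with the replicate block (-0.018), without shNSi culture 1 (-0.050) and without shDAP5 culture 1 (-0.063). With the shNSi moderate pool as control the member median turned in heavy polysomes (-0.22, 0 higher and 0 lower) and in heavy translation efficiency (-0.23, 0 higher), while in light polysomes 7 were higher and 23 lower and in light translation efficiency 10 and 30. The same control turned heavy translation efficiency for MRPL52 (-0.078), MRPL36 (-0.15), MRPL23 (-0.090), MRPL41 (-0.16), MRPL57 (-0.094), MRPS18C (-0.61), MRPL54 (-0.28), MRPL51 (-0.12), MRPL12 (-0.18), MRPS12 (-0.093) and MRPS36 (-0.15). This list holds only members named by the rule above that had passed the threshold, so MRPL37 was not looked up for it. With a member median of -0.23, many other members were below 0 too. With heavy and moderate counts summed, 0 members were higher in heavy translation efficiency, and 0 were higher and 0 lower in heavy polysomes.

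With the coding length offset 1 member was higher in heavy polysomes and 1 in heavy translation efficiency (4.93% and 1.77% of all genes). With the offset and the replicate block there were 5 higher and 2 lower in heavy polysomes, where 10.6% and 13.9% of all genes were called, and 1 higher in heavy translation efficiency (2.08% of all genes). With the replicate block alone 11 rose in heavy translation efficiency, of which 11 were among the 33 and MRPL12 and MRPS12 were not (1.1% of all genes rose), and in the other 4 comparisons of the lines no count left its side. The study describes 2 complete sets, but the labels do not say which cultures of the 2 lines formed a set. Same-numbered cultures of the 2 lines did not deviate together (r between -0.31 and 0.06 across 16235 genes), so the block rests on the numbers alone. With the numbers crossed, 49 rose in heavy translation efficiency (11.4% of all genes) and 0 fell in heavy polysomes (15.3%). With no term for each culture (no replicate block) 0 rose in heavy translation efficiency (0.0% of all genes), 17 in the difference between fractions (0.696%), 2 in shNSi heavy (15.7%), 0 in shNSi moderate (0.0%), 5 with 0 lower in shNSi light (0.37% and 3.77%) and 0 with 3 lower in shDAP5 light (0.413% and 4.72%) against total mRNA, and 1 was lower in shNSi moderate against heavy (18.4%).

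Library size without TMM gave 0 higher in heavy translation efficiency, with 0 of all genes called and the member median 0.78 above that of all genes as before. It gave 0 lower in heavy polysomes (7.98% of all genes), 0 higher and 50 lower in shNSi heavy (7.16% and 29.9%) and 4 higher in shNSi moderate (0.493%) against total mRNA, and 0 lower in shNSi moderate against heavy (17.1%). It moved the median of all genes in heavy polysomes to 0.34, and the members stayed 0.87 above it. Limma gave 15 higher in heavy translation efficiency, of which 14 were among the 33 (1.57% of all genes), and DESeq2 gave 33, of which 31 were (3.57%). DESeq2 gave 32 higher in shNSi moderate (5.09%) and 5 lower in shNSi light (15.0%) against total mRNA, and 1 lower in moderate against heavy (22.7%). Without a filter 5 were higher in shNSi heavy (10.9% of all genes), 17 higher and 5 lower in shNSi light (2.13% and 8.41%) and 7 higher in shDAP5 light (3.74%) against total mRNA, and 1 lower in moderate against heavy (11.2%). With at least 10 counts in every library 5 were higher in shNSi heavy (28.7%), and 1 lower in moderate against heavy (28.4%). With a separate fit for each line 5, 2 and 15 were higher in shNSi heavy, moderate and light (21.8%, 0.187% and 2.84%), and 1 lower in moderate against heavy (23.1%). EIF4G2 kept its fall but not the threshold with library size (-1.07) and limma (-1.08), and ranged from -1.37 to -0.90 with a culture left out.

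With each culture left out in turn, where a lone culture is assumed to vary like the others, members higher ranged from 0 to 35 and lower from 0 to 1 in heavy polysomes, 0 to 2 and 0 to 39 in light polysomes, 0 to 52 and 0 in heavy and 0 to 1 and 0 to 31 in light translation efficiency. Against total mRNA they ranged from 1 to 6 and 16 to 28 in shNSi heavy, 0 to 0 in shNSi moderate, 0 to 15 and 0 to 4 in shNSi light, 0 in shDAP5 heavy and 0 to 17 and 0 to 17 in shDAP5 light, from 43 to 50 and 0 to 4 in shNSi moderate against heavy and from 0 to 45 in the difference between fractions. The share of all genes called also changed with the culture left out. These ranges are therefore not read as particular to the members. The cause of these differences in count was not tested. No member had fewer than 43 counts in a library, and the part of depth in the spread was not tested.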
